A study of Rattus norvegicus with 8 samples.

Results

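Regions of m6A immunoprecipitation signal in 35 chromatin modifier and remodeller genes are described here, 47 regions of the 1967 (1726 genes) that the authors listed as differing between Mettl3-overexpressing and vector control cells. The genes were chosen by name: a symbol that starts with Kdm, Kmt, Setd, Hdac, Sirt, Arid, Chd, Brd, Phf, Ezh, Tet, Dnmt, Kat, Ncor, Ing or Taf followed by a digit, any Smarc gene, and Atad2, Crebbp, Ep300, Ash1l, Nsd1, Suz12 and Eed. They were measured in primary vascular smooth muscle cells of the rat, the contractile cells of the arterial wall. One condition was labelled Mettl3-overexpressing and the other was the vector control; the means of overexpression, the rats and the number of isolations were not stated in the sources used here. Each condition had 2 libraries from the m6A antibody pulldown and 2 input libraries, 8 in all. The study asked how forced Mettl3 expression changes m6A in these cells. Values per library were not used here, so no spread between replicates and no depth per library can be given.

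Chromatin is opened and closed by enzymes that add or remove acetyl and methyl groups on histones, by ATP-driven remodellers that slide or evict nucleosomes, and by proteins that read the marks. Acetyltransferases and the trithorax-type methyltransferases are mostly tied to active genes, while deacetylases, corepressors and Polycomb complexes are mostly tied to silent ones. Mettl3 is the catalytic subunit of the main m6A methyltransferase of messenger RNA, and m6A is a mark whose readers act on splicing, export, decay and translation. In vascular smooth muscle, histone acetylation and methylation are known to take part in the switch between the contractile and the proliferative state.

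Most chromatin gene regions were listed as lower in Mettl3-overexpressing cells, and few passed. The authors' deposited table held 40 lower regions in 32 of these genes and 7 higher regions in 7 genes. Lower regions thus made up 85.1% of the 47 (exact binomial 95% interval 71.7 to 93.8%, counting error only), beside 86.9% of all 1967 regions. At an adjusted p under 0.05 according to the authors' deposited table, 6 lower regions and 1 higher region passed, in 5 genes: Taf5l, Ncor1, Atad2, Arid4b and Crebbp. Of all listed regions 14% passed, 13% of the lower and 20.2% of the higher ones, and of the chromatin gene regions 14.9% passed, so their share was near the background. The median fold was 26.1 for their lower and 31.8 for their higher regions according to the authors' deposited table, beside 26.2 and 25.6 for all regions. Whether the authors corrected the fold for input was not stated in the sources used here. A lower m6A signal is therefore not separated from less RNA of that gene, and in bulk cultures fewer cells of a type and less RNA per cell cannot be told apart.

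**Figure D1:**
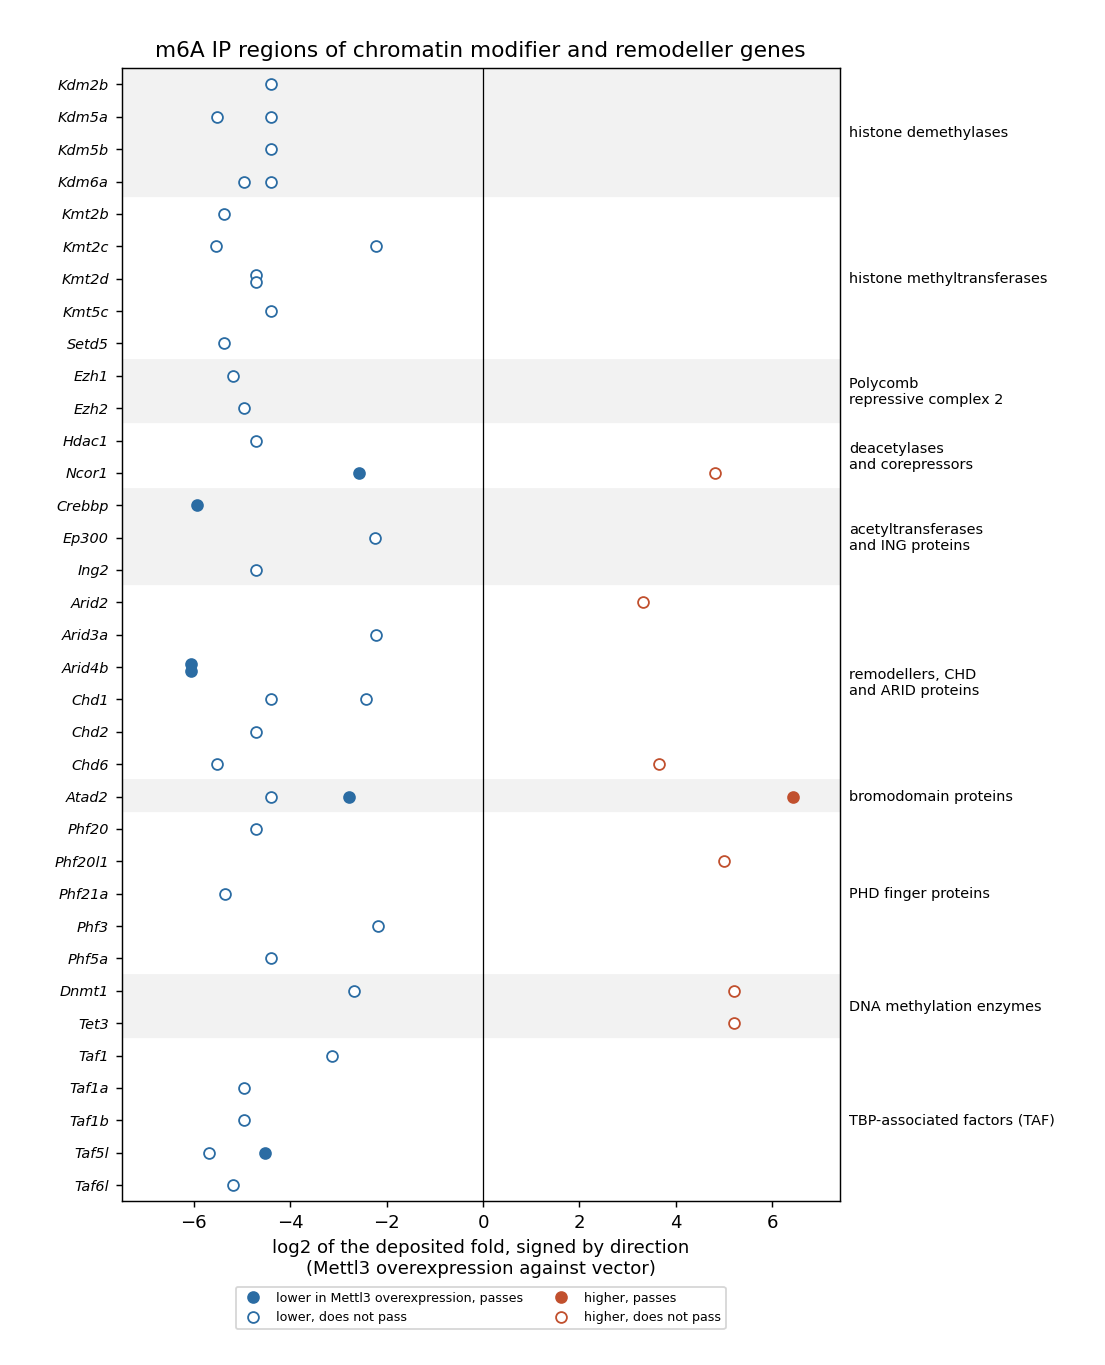
Each point is 1 region of a chromatin gene, placed by the log2 of the deposited fold, negative where the region was lower in Mettl3-overexpressing cells; rows are genes grouped by role, and filled points have an adjusted p under 0.05. Of the 47 points 40 lie left of 0, and 7 are filled, in Taf5l, Ncor1, Atad2, Arid4b and Crebbp.

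The reads behind these folds were inferred, because the folds take few values. Many folds have a single decimal, which is the result when 0.1 is added to both means and one of them is 0. Read this way, the vector means were multiples of about 0.503 and the overexpression means multiples of about 0.123, steps that were taken as 1 read over the 2 libraries of a condition. In the folds a vector read thus counted 4.09 times as much as an overexpression read; whether this weight matches the depth of the libraries was not analysed here. Such implied reads are inferred, not measured values. Of the 47 chromatin gene regions 35 had an implied 0 in one condition. The other 12 had reads in both. More than 1 pair of read numbers gave the same fold for 30 of the 35 and for 7 of the 12. In these cases the smallest pair is stated, so the read numbers that follow are not unique. For the 30, every other pair has reads in both conditions, so the 0 itself is not settled by the fold alone.

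Taken at the smallest pair, lower chromatin gene regions rested on few implied reads. Of the 40, 30 had an implied 0 in the overexpressing cells, with a median of 6 vector reads and a range from 4 to 13. In 14 of these 30 the vector reads numbered 4 or 5, a share of 46.7%, beside 48.2% over all listed lower regions with an implied 0. The other 10 lower regions had 8 to 38 vector reads against 3 to 24 overexpression reads. Their folds lay between 4.53 and 22.9 according to the authors' deposited table, while their ratios of reads, without the weight, lay between 1.17 and 6.33 and were under 2 in 8 regions. The 7 higher regions had 22 to 69 overexpression reads against 0 or 1 vector read. A further fold was taken with 3 reads in place of each implied 0, the weights kept and the added constant left out. Its median was 6.82 for the lower and 2.36 for the higher regions, beside 7.15 and 4.19 for all listed regions. Regions with reads in both conditions kept the deposited fold, which includes the constant. The change in the medians is therefore not that of the 3 reads alone. The higher regions of the chromatin genes thus had the larger median as deposited and the smaller one after this change. A floor of 3 vector reads weighs 4.09 times as much as one of 3 overexpression reads, so this reversal follows from the weights.

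**Figure D2:**
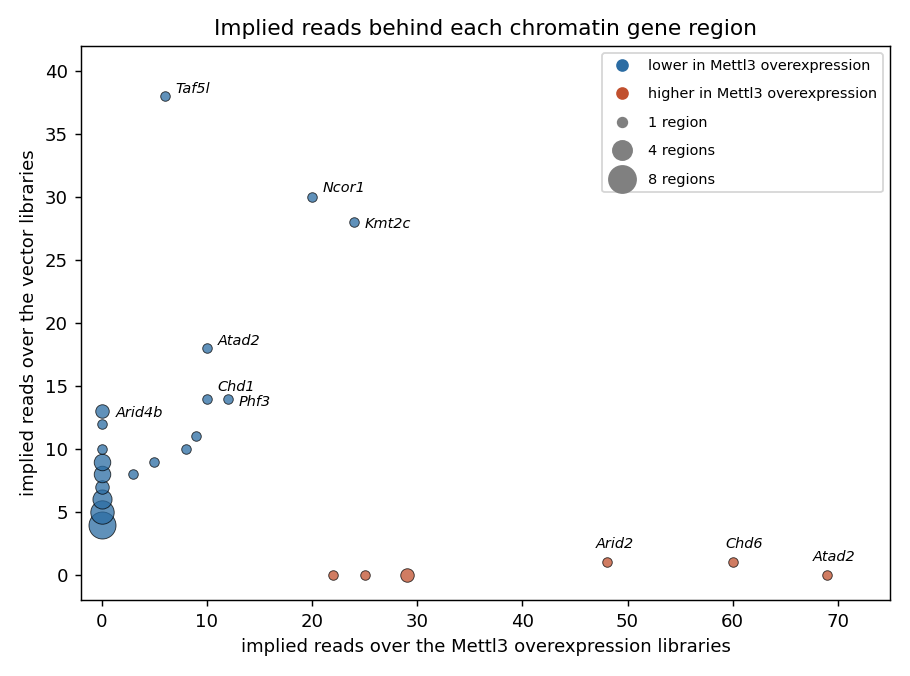
Implied reads over the vector libraries (vertical axis) are plotted against implied reads over the Mettl3 overexpression libraries (horizontal axis) for each chromatin gene region, with the area of a point giving the number of regions at that place. The lower regions crowd at 0 overexpression reads and 4 to 13 vector reads, the largest point being 8 regions at 4 reads, and the higher regions lie along the bottom from 22 to 69 overexpression reads.

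Histone methyltransferases, which place active or repressive marks, had lower regions only among those listed, and none passed. They numbered 7 in 5 genes by the authors' deposited table. Kmt2c, which adds methyl groups to histone H3 at enhancers, had the smallest p among them. Its 145 bp region on chromosome 4 from 6271236 to 6271380 (coordinates are those of the tables, whose build is unnamed and is not GRCr8) had a fold of 46.3 at an adjusted p of 0.0592 according to the authors' deposited table. This was the chromatin gene region nearest to the threshold on the outer side, with 9 implied vector reads against 0. A second Kmt2c region, 335 bp long from 6290382 to 6290716, had a fold of 4.66 at an adjusted p of 0.0787 according to the authors' deposited table. It had the deepest support of the group, 28 vector reads against 24 overexpression reads, so that the reads alone gave a ratio of 1.17. Kmt2b, a related enzyme that acts at promoters, and Setd5, a SET domain protein that associates with corepressor complexes, each had a fold of 41.3 (adjusted p = 0.0787) according to the authors' deposited table, from 8 vector reads against 0. Kmt5c, which methylates histone H4 in heterochromatin, had a 20 bp region at a fold of 21.1 (adjusted p = 0.248) according to the authors' deposited table, from 4 reads against 0. RefSeq names 1 Kmt5c pseudogene that could share its reads.

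Kmt2d, the close relative of Kmt2c, was listed with regions of 183 and 105 bp, each at a fold of 26.1 according to the authors' deposited table and 5 vector reads against 0. These regions lie on chromosome X in the tables, whereas the gene with the same ID lies on chromosome 7 in the RefSeq assembly GRCr8, so their assignment to Kmt2d is uncertain.

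Histone demethylases were listed as lower in 6 regions of 4 genes, and none passed. Kdm5a, which removes methyl groups from active promoters, had the smallest p of the group. Its region of 159 bp on chromosome 4 from 220009598 to 220009756 had a fold of 46.2 at an adjusted p of 0.0787 according to the authors' deposited table, from 9 vector reads against 0. A second Kdm5a region of 28 bp lay 1.41 kb further along, with a fold of 21.1 at an adjusted p of 0.248 according to the authors' deposited table. Kdm5b, of the same subfamily, and Kdm2b, which brings a Polycomb complex to CpG islands, had regions of 10 and 14 bp at the same fold of 21.1 according to the authors' deposited table. All of these regions at 21.1 rested on 4 vector reads against 0, the smallest number among the listed lower regions with an implied 0. Kdm6a, which removes the repressive methyl mark of Polycomb, had regions of 172 and 106 bp at folds of 31.3 and 21.1 according to the authors' deposited table. They lie on chromosome X in the tables, but the gene ID given there belongs to Uty, the Y-linked relative, in GRCr8, and reads of such similar genes may not be separable.

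Kmt2c, Kmt2d and Kdm6a are subunits of one complex, the Kmt2c/Kmt2d (MLL3/4) complex that marks enhancers. They were the 3 listed genes whose deposited annotation names this complex, and all 6 of their regions were lower without passing, where 86.9% of all listed regions were lower. The 4 regions in Kmt2d and Kdm6a are of uncertain assignment, which leaves the 2 in Kmt2c.

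Both enzymes of Polycomb repressive complex 2 were listed as lower, and neither passed. Ezh1 had a region of 69 bp with a fold of 36.2 at an adjusted p of 0.112 according to the authors' deposited table, from 7 vector reads against 0. Ezh2, the form that prevails in dividing cells, had a region of 124 bp with a fold of 31.2 at an adjusted p of 0.159 according to the authors' deposited table, from 6 reads against 0. Suz12 and Eed, the other core subunits in the name rule, had no listed region.

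Crebbp was the acetyltransferase that passed. Crebbp (CBP) and Ep300 (p300) are paralogous coactivators that acetylate histones at enhancers and promoters. The Crebbp region of transcript NM_133381 spanned 339 bp on chromosome 10 from 10471802 to 10472140 and fell with a fold of 61.2 at an adjusted p of 0.0359 according to the authors' deposited table. It was the passing chromatin gene region nearest to the threshold, from 12 vector reads against 0. With 3 reads set for the 0, the weights kept and the added constant left out, the Crebbp fold was 16.4. Ep300 had a region of 177 bp with a fold of 4.75 at an adjusted p of 0.217 according to the authors' deposited table. The smallest reads that give the Ep300 fold are 10 vector and 8 overexpression reads, but larger pairs give it too. Ing2, a PHD finger subunit of the Sin3 deacetylase complex, had the longest region of all the chromatin genes, 359 bp, with a fold of 26.1 according to the authors' deposited table from only 5 vector reads. No gene of the Kat family was listed, of 9 in RefSeq.

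Ncor1 had a passing lower region and a higher one that did not pass. Ncor1 is the nuclear receptor corepressor that holds a histone deacetylase at silent genes. The region of transcript NM_001271103 on chromosome 10 from 48487818 to 48487942 (125 bp) fell with a fold of 5.94 at an adjusted p of 0.00301 according to the authors' deposited table. It had reads in both conditions, 30 in vector and 20 in overexpressing cells, a ratio of reads of 1.5. RefSeq names 1 Ncor1 pseudogene that could share its reads. A region of 95 bp at 48482543 to 48482637, 5.18 kb away, was listed as higher with a fold of 28.1 at an adjusted p of 0.234 according to the authors' deposited table, from 22 overexpression reads against 0. With 3 vector reads in place of that 0, the weights kept and the added constant left out, its fold was 1.79. Hdac1, a class I deacetylase, had 1 region of 75 bp at a fold of 26.1 (adjusted p = 0.217) according to the authors' deposited table. The Hdac1 value is uncertain, since RefSeq names 18 Hdac1 pseudogenes in the rat that could share its reads. The other 11 Hdac genes of RefSeq and all 7 Sirt genes had no listed region.

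Among remodellers and ARID proteins, Arid4b passed. Arid4b is an AT-rich interaction domain protein of the Sin3 deacetylase complex. It fell in 2 regions of 85 bp each on chromosome 17, from 51351797 to 51351881 and from 51550795 to 51550879, both with a fold of 66.3 at an adjusted p of 0.0237 according to the authors' deposited table. Length, fold and p were identical, with 13 vector reads against 0 in each. The regions lie 199 kb apart, more than the 124 kb that the whole gene spans in GRCr8, so they are uncertain as separate regions; counted once, the chromatin genes had 5 lower passing regions. Among all listed regions 5 genes had such a pair of identical length, fold and p. With 3 reads set for the 0, the weights kept and the added constant left out, the Arid4b fold was 17.7.

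CHD remodellers, helicase proteins that move nucleosomes and some of which bind methylated histones, were listed without passing. Chd6 had both directions: a lower region of 122 bp with a fold of 46.1 (adjusted p = 0.0787) and, 20.7 kb away, a higher region of 148 bp with a fold of 12.5 (adjusted p = 0.0689) according to the authors' deposited table. The lower Chd6 region had 9 vector reads against 0, and the higher one had 60 overexpression reads against 1 vector read. Chd1, which acts with elongating RNA polymerase, had lower regions with folds of 5.37 and 21.1 (adjusted p = 0.0787 and 0.248) according to the authors' deposited table. The first of these rested on 14 vector against 10 overexpression reads, a ratio of 1.4. Chd2 had a fold of 26.1 from 5 vector reads and Arid3a, a DNA-binding factor, a fold of 4.66 from 11 vector against 9 overexpression reads, both lower without passing according to the authors' deposited table. Arid2, a subunit of the PBAF form of SWI/SNF, had 1 region, listed as higher with a fold of 10.0 at an adjusted p of 0.135 according to the authors' deposited table. It had 48 overexpression reads against 1 vector read. No Smarc gene, the core of SWI/SNF and related remodellers, was listed, and none of 10 Brd genes.

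Atad2 was the chromatin gene with the most regions, 3, and with passing regions in both directions. Atad2 is a bromodomain ATPase that binds acetylated histones and is abundant in dividing cells. On chromosome 7 its region from 98597709 to 98597811 (103 bp) fell with a fold of 6.89 at an adjusted p of 0.0168 according to the authors' deposited table. That region had 18 vector against 10 overexpression reads, a ratio of 1.8. The region from 98616107 to 98616200 (94 bp) rose with a fold of 85.9 at an adjusted p of 0.0112 according to the authors' deposited table, from 69 overexpression reads against 0. With 3 vector reads in place of that 0, the weights kept and the added constant left out, the fold was 5.62. Between them lay a lower region of 109 bp, from 98606094 to 98606202, with a fold of 21.1 at an adjusted p of 0.248 according to the authors' deposited table, from 4 vector reads. The gaps between neighbouring Atad2 regions were 8.28 and 9.90 kb.

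**Figure D3:**
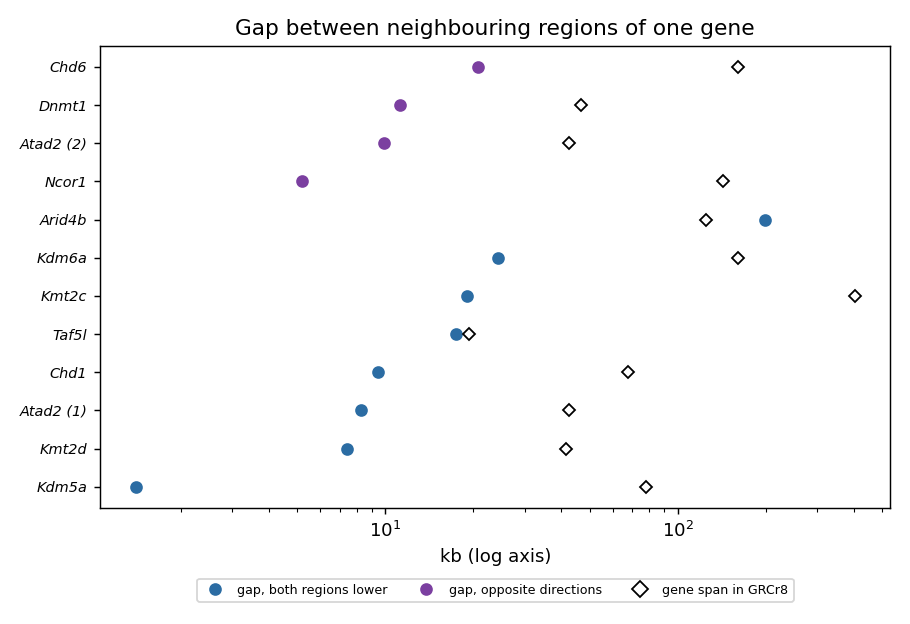
Filled points give the gap in kb (log axis) between neighbouring regions of the same gene, coloured by whether both were lower or their directions were opposite, and open diamonds give the span of the gene in GRCr8. The diamond of Kdm6a is the span of Uty, to which its gene ID belongs. The gaps run from 1.41 kb in Kdm5a to 199 kb in Arid4b, the 1 gene whose gap exceeds its span; opposite directions occur in Ncor1, Atad2, Dnmt1 and Chd6.

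Enzymes of DNA methylation had more higher than lower regions among those listed, and none passed. Dnmt1, the methyltransferase that copies DNA methylation after replication, had a higher region of 311 bp with a fold of 36.7 (adjusted p = 0.159) according to the authors' deposited table. Tet3, a dioxygenase that oxidises methylcytosine and so acts in the opposite direction, had a higher region of 91 bp with the same fold and adjusted p according to the authors' deposited table. Each of these higher regions had 29 overexpression reads against 0. With that 0 set to 3 vector reads, under the same weights and without the added constant, the fold was 2.36. Dnmt1 also had a lower region of 191 bp, 11.2 kb away, with a fold of 6.43 at an adjusted p of 0.148 according to the authors' deposited table, from 9 vector against 5 overexpression reads.

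PHD finger proteins, named for a domain that often reads histone tails, had 4 lower regions and 1 higher region, none of which passed. Phf21a, a subunit of a demethylase and corepressor complex, had the smallest p, with a region of 52 bp, a fold of 41.1 at an adjusted p of 0.112 according to the authors' deposited table, from 8 vector reads against 0. Phf20, a reader in an acetyltransferase complex, had a fold of 26.1 over 15 bp, and its relative Phf20l1 was listed as higher with a fold of 31.8 over 42 bp according to the authors' deposited table. The adjusted p was 0.217 for Phf20 and 0.178 for Phf20l1 according to the authors' deposited table, with 5 vector and 25 overexpression reads, each against 0. Phf3, which binds the tail of RNA polymerase II, had a fold of 4.53 from 14 vector against 12 overexpression reads, the smallest fold of the chromatin genes according to the authors' deposited table. Phf5a, listed under this name, is a splicing factor subunit and not a chromatin protein in its best known role; it had a fold of 21.1 according to the authors' deposited table from 4 vector reads.

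Among the TBP-associated factors, Taf5l had the smallest p of all chromatin gene regions. Taf5l and Taf6l are subunits of the SAGA-type acetyltransferase complex, Taf1 is the largest subunit of TFIID, and Taf1a and Taf1b serve RNA polymerase I. The Taf5l region of transcript NM_001107442 on chromosome 19 from 67498342 to 67498680 (339 bp) fell with a fold of 22.9, a p of 1.78e-10 at an adjusted p of 3.71e-07 according to the authors' deposited table. It had reads in both conditions, 38 in vector and 6 in overexpressing cells, and its ratio of reads of 6.33 was the largest among the lower chromatin gene regions with reads in both. A second Taf5l region of 178 bp, 17.5 kb away, had a fold of 51.2 at an adjusted p of 0.0613 according to the authors' deposited table, from 10 vector reads against 0. The gene ID is named Taf5l1 in GRCr8, where 4 genes or pseudogenes carry names of this kind, so reads may be shared between copies. Taf6l had a fold of 36.3, Taf1a of 31.3, Taf1b of 31.2 and Taf1 of 8.79, all lower without passing according to the authors' deposited table. Their adjusted p-values lay between 0.112 and 0.191 according to the authors' deposited table.

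**Figure D4:**
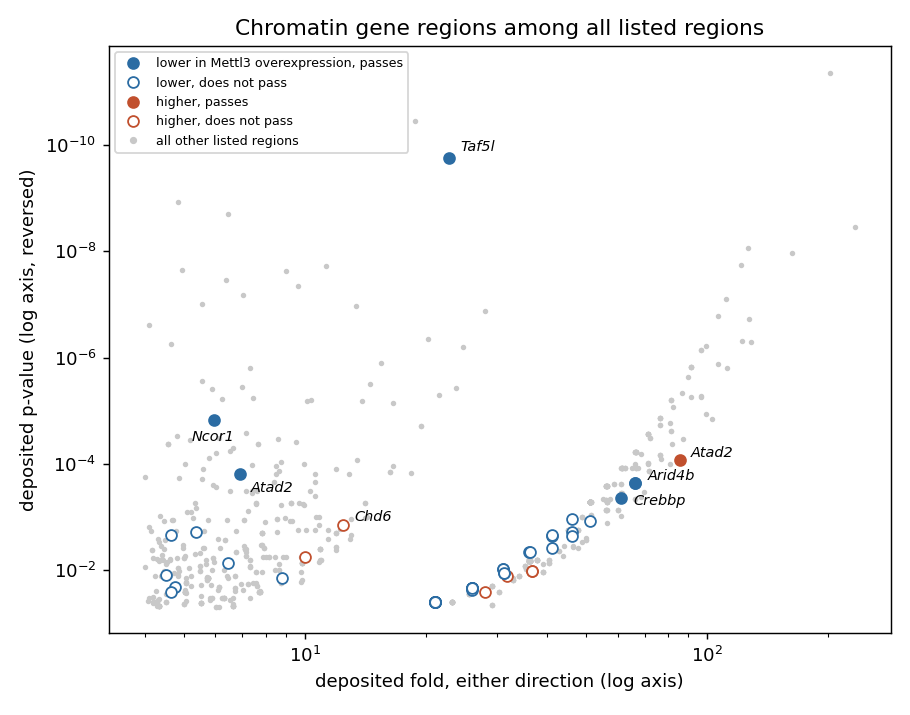
The deposited p-value (vertical log axis, smallest at the top) is plotted against the deposited fold in either direction (horizontal log axis) for all 1967 listed regions, grey, and for the 47 chromatin gene regions, coloured by direction and filled where the adjusted p is under 0.05. Most chromatin gene regions lie on the band at the right where a larger fold goes with a smaller p, which holds the regions with an implied 0; Taf5l, Ncor1 and the lower Atad2 region stand off it, at folds of 22.9, 5.94 and 6.89.

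Several regions in one gene, or both directions, occurred in some of the chromatin genes. Of the 35, 11 had more than 1 region (31.4%), beside 192 of all 1726 genes (11.1%). Among the 11 are Arid4b, Kmt2d, Kdm6a and Taf5l, whose regions are of uncertain assignment or may not be separate. The share without them was not computed. Of the 7 genes with a higher region 4 also had a lower one (57.1%), beside 45 of 249 in all (18.1%). A further 3, Arid2, Phf20l1 and Tet3, had higher regions only. The median gene span in GRCr8 was 78.0 kb for the 11 genes with more than 1 region and 71.8 kb for the 24 with 1; the part of gene length in these shares was not tested. Kdm6a entered with the span of Uty, to which its gene ID belongs. Among listed protein-coding genes matched by ID, the median span was 71.4 kb under the name rule and 40.0 kb over all.

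Most genes under the name rule had no listed region. RefSeq holds 183 protein-coding rat genes whose symbols fit it, and 35 of these (19.1%) had a listed region by gene ID, a count that takes in TAF4, which the tables write in capitals, and leaves out Kdm6a for its ID. Of all 23154 protein-coding genes 6.82% had one. The median gene span was 71.4 kb for listed and 28.5 kb for unlisted genes under the name rule, and 40.0 and 14.4 kb over all protein-coding genes. RNA levels were not used here, and the part of span or RNA level in being listed was not tested. TAF4, outside the rule by its spelling, had 1 lower region with a fold of 31.2 (adjusted p = 0.159) according to the authors' deposited table.

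**Figure D5:**
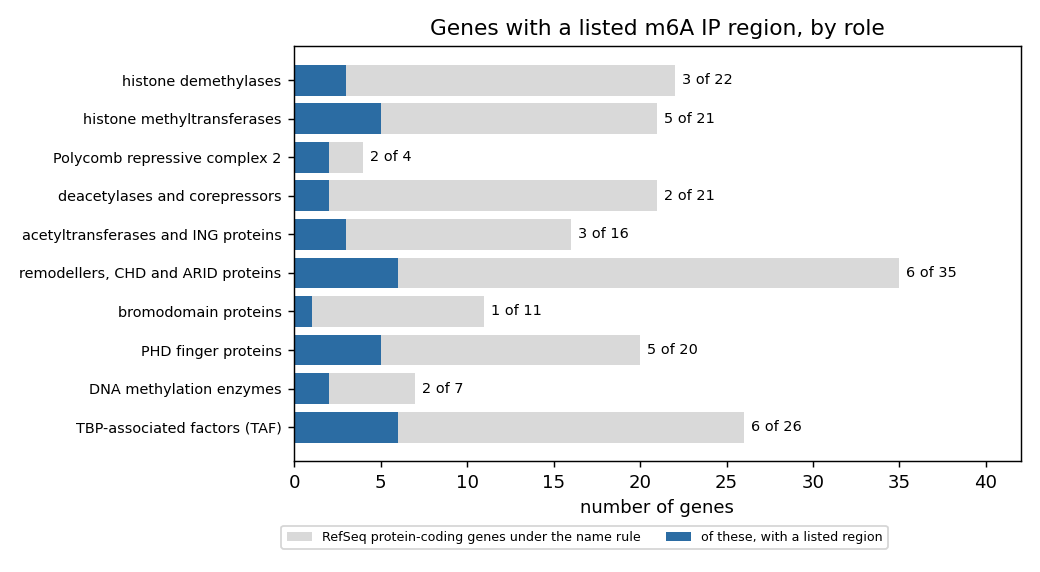
Grey bars give the number of protein-coding RefSeq genes under the name rule in each role, and blue bars the number of these with a listed m6A IP region, matched by gene ID. The counts run from 1 of 11 bromodomain proteins to 6 of 35 remodellers, CHD and ARID proteins, with 2 of 4 for Polycomb repressive complex 2.

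Some regions of the chromatin genes were very short. The median length was 106 bp for the chromatin genes, from 10 to 359 bp, beside 131 bp over all regions. Of the 47 regions 7 were under 50 bp (14.9%, beside 13.0% over all), although the RNA had been broken to fragments of mainly 100 to 200 nt per the labels' protocols. None of these 7 short regions passed, beside 14% of all listed regions, and 7 are too few to read a difference from this. The share passing among all 256 listed regions under 50 bp was not computed.

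Other chromatin genes, 148 symbols outside the name rule, gave 27 lower and 2 higher regions in 25 genes, with 6 lower regions and 1 higher region passing, 24.1% of the 29 beside 14% of all listed regions. The list was written with earlier results of these data known, so its shares describe the list only. In this wider list 93.1% of regions were lower, beside 86.9% of all, and its remodellers held 4 of the passing regions. Rsf1, a subunit of an ISWI remodeller, fell with a fold of 5.88 (adjusted p = 0.00111) according to the authors' deposited table, from 34 vector against 23 overexpression reads. Ss18l1, a subunit of neuronal SWI/SNF, fell with a fold of 6.52 (adjusted p = 0.0289) according to the authors' deposited table, from 17 against 10 reads. Shprh and Ercc6, SNF2-family ATPases of DNA repair, fell with folds of 66.6 and 51.4 (adjusted p = 0.0237 and 0.036) according to the authors' deposited table, from 13 and 10 vector reads against 0. Jmjd1c, of the jumonji demethylase family, fell with a fold of 56.2 (adjusted p = 0.0488) according to the authors' deposited table over 35 bp. Bmi1, of Polycomb repressive complex 1, had the largest fold of this list, 121.9 (adjusted p = 1.40e-05) according to the authors' deposited table, from 24 reads against 0. Rest, a repressor that recruits corepressors to neuronal genes, was the passing higher gene, with a fold of 5.60 at an adjusted p of 0.0142 according to the authors' deposited table, from 118 overexpression against 5 vector reads. Sin3a, the scaffold of the complex that holds Arid4b, Ing2 and Hdac1, was listed as lower with a fold of 46.3 (adjusted p = 0.0592) according to the authors' deposited table. Of 10 smooth muscle markers, Cnn1 and Myocd were listed, both lower without passing; a list of differing regions gives no level by which to check the cell type.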

How the data were processed

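The study profiled m6A by MeRIP-seq in 4 groups of 2 libraries. Read trimming used Trimmomatic 0.36, as the submitters' processing notes say; aligner, build, caller and test were not given in the sources used here. Per the file headers, 2 deposited tables list regions of the authors' comparison, with a fold (a ratio above 1 in both tables), a p-value and adjusted p-value, a score and a length. The deposited score equals the −log10 of the p-value. Every listed fold is at least 4 and every p under 0.05.

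The members and lists were chosen with earlier results of these data known. The text names genes with a passing region, both directions or 3 regions, the smallest p and largest fold per role and direction, the longest region and those next to the threshold; other genes were named after their values were seen. Regions were counted at an authors' adjusted p under 0.05; no test of this work's own could be made, as planned where no value per library is held. Implied reads were fitted to means of 2 decimals within 0.015. The steps were found on means under 6, taken only from folds with a single decimal. These were 1343 vector means from lower regions and 122 overexpression means from higher regions. Of these, 95.2% and 96.7% fell within 0.015 of a multiple of the step, beside 5.96% and 24.4% for evenly spread values. As the steps were chosen on the same means, these shares describe the fit and do not test it. The fit was run on folds simulated with the same constant, rounding and nearly the same read weights. Implied reads were recovered for 100% of those with a true 0, where taking the smallest pair favours a 0. Without a 0 they were recovered for 96.4% of 140. The simulated lower regions had fewer than 30 vector reads, whereas the Ncor1 and Taf5l regions had 30 and 38. Recovery at such read numbers was not tested. Whether the deposited folds arose in this way was not tested by the simulation. Depth per library is unknown. Gene IDs were matched to RefSeq GRCr8 (35 of 35) for names, spans and copies only: the tables reach position 248209735 on chromosome 4, beyond the last GRCr8 gene end of 184404305. Starts count from 1. Positions within transcripts and sequences of the regions were not analysed here. Python 3.11.15, pandas 2.3.3 and scipy 1.17.1 were used.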

Additional observations from a re-analysis of the deposited data

How the results depend on the processing

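For the chromatin genes, 6 lower regions and 1 higher region passed at an adjusted p under 0.05. At an adjusted p under 0.01 the counts were 2 and 0, with all deposited regions 40 and 7, without folds with a single decimal 3 and 0, and with the wider list of chromatin genes added 12 and 2. The stricter threshold and the subset hold fewer regions by construction. Leaving out Taf, Ing and Phf genes, counting genes or requiring 50 bp kept the counts within 1.5 times. Chosen after seeing the data, counting Arid4b once, using current symbols or requiring 10 implied reads did so too. Leaving out Kmt2d, Kdm6a, Taf5l and Hdac1 with Arid4b counted once, also chosen then, left 4 and 1, within that limit. Ncor1 and 1 Arid4b region, uncertain as well, stayed in, and counts without them were not computed. All passing regions had at least 50 bp and 10 implied reads, so those minimums could not change the counts. The share of lower regions, 85.1%, lay between 82.1% and 85.7% in the planned settings. Chosen after seeing the data, a minimum of 10 implied reads left 14 lower and 7 higher (66.7% lower) and of 18 reads 8 and 7 (53.3%); higher regions start at 22 reads, so the fall was built into these minimums. The lower regions' median fold was 26.1, and 6.82 with 3 reads in place of an implied 0. That of the higher regions was 31.8, and 2.36 with this change. Folds with the 3 reads also leave out the added constant, so the 2 changes are not separated. The medians were 5.65 and 11.2 without folds with a single decimal. No paired analysis was possible because values per library are not held; leaving out a library and another pseudocount could not be run either. Of the 7 passing regions 5 were lost at 0.01, those in Arid4b, Atad2 and Crebbp; Ncor1 and Taf5l remained. Few reads and unknown depth limit all of these values.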
